A study of Enchytraeus crypticus with 60 samples.

Results

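Worms exposed for 3 days to soil with polyvinylpyrrolidone-coated silver nanoparticles (Ag-NPs PVP-Coated) were compared with worms kept for 3 days in un-spiked soil (CT). The arrays were chosen by their labelled group. They are 9 of the 60 arrays of the series: 3 of CT 3d, 3 of Ag-NPs PVP-Coated EC20 3d and 3 of Ag-NPs PVP-Coated EC50 3d. The EC20 and the EC50 are the soil concentrations that lower reproduction by 20% and by 50%. All groups were adult *Enchytraeus crypticus*, a small soil oligochaete, with a well-developed clitellum, the band of skin that forms the egg cocoons. All were kept in natural standard soil without food. Each array measured 1 vessel's pool of 20 whole worms on 1-colour Agilent arrays. In whole worms, fewer cells of a type and less RNA per cell cannot be told apart.

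Silver particles in soil shed silver ions, which bind the thiol groups of proteins and enter cells as a toxic metal. The polymer coat, known as PVP, keeps particles from clumping. Cells exposed to toxic metals are known to raise metal-binding proteins, chaperones and antioxidant enzymes. None of these genes could be looked up here, because the files identify probes by an assembled contig or by a single sequencing read and do not pair them with gene names. For the same reason the tissue could not be checked against marker genes, and the probes' sequences are not given here. The probes below are therefore called by the array's own identifiers.

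Of 43750 gene probes, 23179 had a signal that was positive and significant on all 60 arrays and were tested. The median processed signal of the 9 arrays lay between 10.6 and 22.3 units, and 50.8% to 62.3% of gene probes were well above background. No gene spot was saturated. Pairs of arrays from 1 group correlated at 0.964 to 0.991 over the tested probes, and pairs from different groups at 0.939 to 0.990, so no 2 arrays held the same values. The arrays were brought to 1 scale by SVCD normalization, the study's method, which aligns arrays on probes without detectable variation between groups. It does not assume that the median gene stays unchanged.

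Over the tested probes the arrays stepped upward with the dose. The mean log2 signal of an array was 6.86, 6.85 and 6.94 in CT 3d, 7.15, 7.14 and 7.25 at the EC20, and 7.37, 7.42 and 7.34 at the EC50. The 3 groups did not overlap. SVCD first aligns the arrays of a group with one another, which keeps their spread small. The SD was 0.05 in CT 3d, 0.06 at the EC20 and 0.04 at the EC50. The lack of overlap and the permutation p-values on this scale thus follow largely from the scaling. They are not evidence from 3 independent arrays per group. The EC20 arrays exceeded CT by 0.30 and the EC50 arrays exceeded CT by 0.49, each with an exact two-sided permutation p of 0.1, which is the smallest that 3 arrays against 3 can give. The EC50 arrays exceeded the EC20 arrays by 0.20 (exact permutation p = 0.1). Among the 20 groups of the series CT 3d had the lowest mean level, and Ag-NPs PVP-Coated EC50 3d had the second highest, below Ag-NPs Non-Coated EC50 3d. Scaled by the 6 Agilent spike-in probes that were well above background everywhere, the arrays averaged 6.62 ± 0.27 in CT 3d, 7.38 ± 0.33 at the EC20 and 7.58 ± 0.22 at the EC50 (SD, n = 3 each). On that scale the EC50 and EC20 arrays overlapped (exact permutation p = 0.5). Median normalization sets this step to about 0 by construction. Signals are relative to the RNA hybridised, and no value here is RNA per worm.

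**Figure D1:**
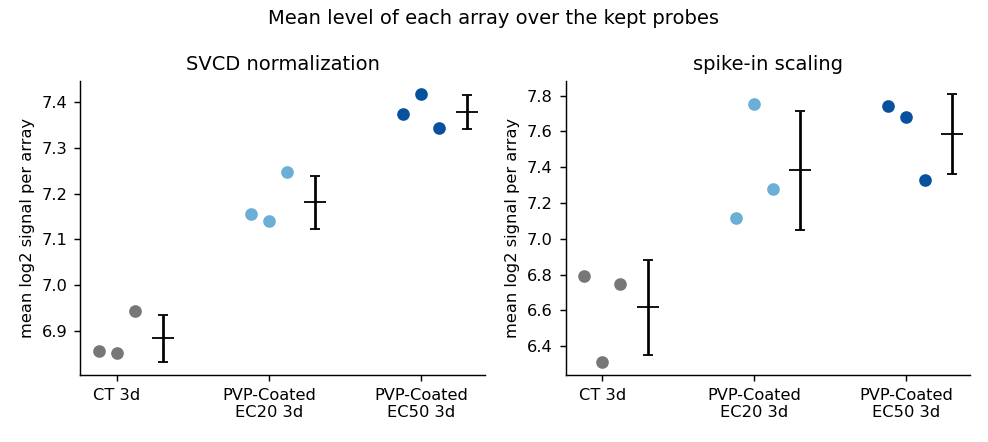
Mean log2 signal of each array (points) over the 23179 tested probes in CT 3d, Ag-NPs PVP-Coated EC20 3d and EC50 3d, after SVCD normalization (left) and spike-in scaling (right), with the group mean and SD (n = 3) beside the points. With SVCD, which aligns the arrays of a group with one another, the 3 groups do not overlap. With spike-in scaling only CT stands apart from both doses.

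At the EC20, expression went up far more often than down. Of the tested probes, 3801 were over-expressed, which is 16.4% of them, and 56, or 0.242%, were under-expressed (limma, Benjamini-Hochberg false discovery rate below 5%). The over-expressed probes rose by a median of 0.89 on the log2 scale, with quartiles at 0.66 and 1.25, and the under-expressed ones had a median of -1.002. A change of at least 2-fold was reached by 1568 over-expressed and 28 under-expressed probes, and a change of at least 8-fold by 46 and 3. The 3 EC20 arrays lay above all 3 CT arrays for 7267 probes, 31.4% of those tested, and below them for 408, or 1.76%. These counts were made on the SVCD scale only and include its shift of the whole array.

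At the EC50, 10931 probes were called, 47.2% of those tested, against 3857 (16.6%) at the EC20. Over-expression was found for 10724 probes, 46.3% of those tested, and under-expression for 207, or 0.893%. The median change was 0.89 for the over-expressed probes and -1.33 for the under-expressed ones. At least 2-fold changes numbered 4183 upward and 158 downward, at least 8-fold changes 126 and 2, and at least 32-fold changes 14 and 0. On the SVCD scale, with its shift of the whole array, the EC50 arrays lay above all CT arrays for 12495 probes (53.9%). They lay below them for 1047 (4.52%). The typical standard error of a log2 change was 0.29, which corresponds to a 95% interval of ± 0.58. Of the over-expressed probes, 218 were not well above background on any CT array. Their changes are bounds, and with the bounds in place the median of the over-expressed probes was 0.89.

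Most of these calls depended on how the arrays were scaled. The median probe changed by 0.27 at the EC20 and by 0.55 at the EC50 under SVCD, and by -0.04 and 0.03 under Median normalization, so a change should be read against that shift. Under Median normalization 647 probes (2.79% of those tested) were over-expressed and 130 (0.561%) under-expressed at the EC20, and 1871 (8.07%) and 1215 (5.24%) at the EC50. Upward calls then made up 83.3% of all calls at the EC20 and 60.6% at the EC50, against 98.5% and 98.1% under SVCD. With slide added as a block to the Median fit, after the data were seen, 751 upward and 557 downward EC20 calls were made (57.4% upward). All 647 and all 1871 upward calls of Median normalization were also upward calls of SVCD. Likewise 54 of the 56 and all 207 downward calls of SVCD were made by Median normalization. The changes under SVCD lie above those under Median normalization by a nearly constant 0.31 at the EC20 and 0.52 at the EC50. This nesting of the calls is therefore largely built in. No SVCD call turned into a call in the other direction under any of 6 scalings.

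**Figure D2:**
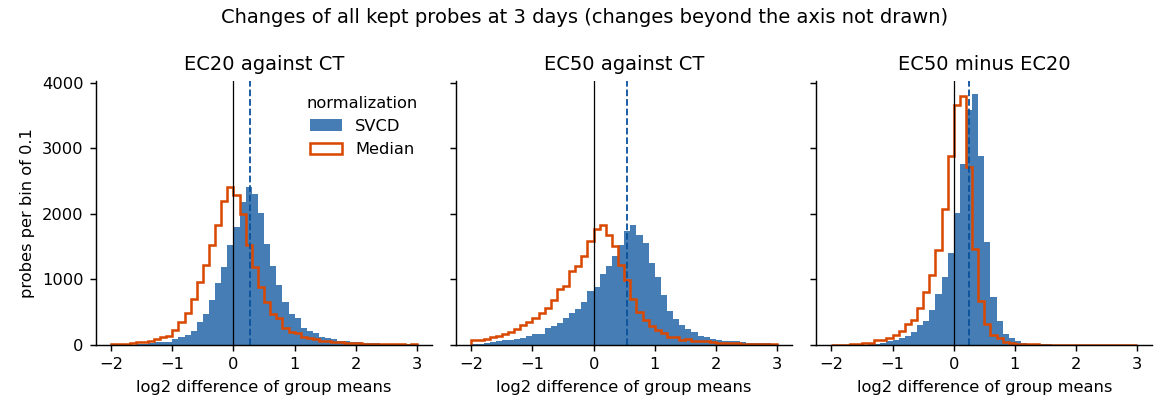
Number of tested probes (vertical axis) by log2 difference of group means (horizontal axis, bins of 0.1) for EC20 against CT, EC50 against CT, and EC50 minus EC20, after SVCD (filled) and Median (outline) normalization. The dashed lines mark the SVCD medians of 0.27, 0.55 and 0.25; the outlined distributions sit near 0.

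A smaller group of probes was called in 1 direction under all 6 scalings, namely SVCD, MedianCD, spike-in, Median, Quantile and 75th percentile. At the EC20 it held 545 over-expressed probes (2.35% of those tested) with a median SVCD change of 1.77, and 10 under-expressed probes (0.0431%) with a median of -2.40. At the EC50 it held 1775 over-expressed probes (7.66%) with a median of 1.63, and 11 under-expressed probes (0.0475%) with a median of -2.57. Spike-in scaling called only 10 probes downward at the EC20 and 11 at the EC50, so that scale alone set the downward counts. The balance of upward and downward probes in this group therefore depends on which scalings were included. Both doses shared 531 of the upward probes and 6 of the downward probes. This is 97.4% and 29.9% of the upward lists at the EC20 and the EC50. The comparisons share the 3 CT arrays, so this agreement is not independent.

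**Figure D3:**
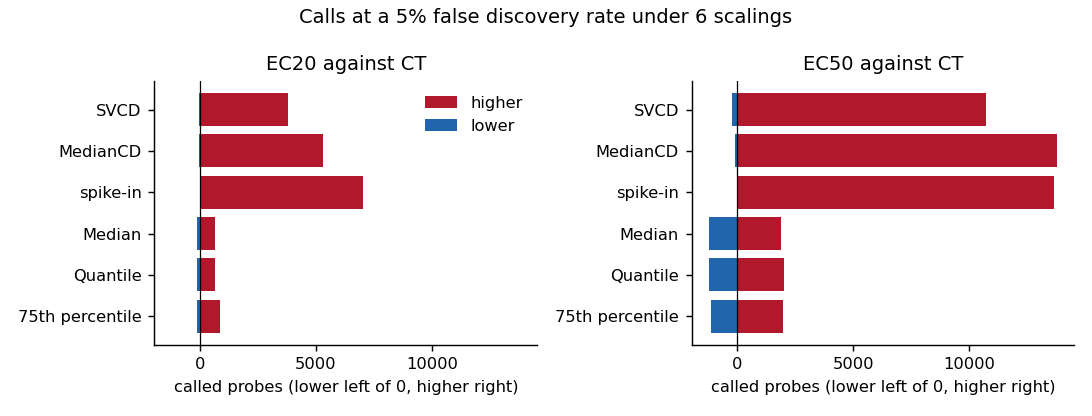
Number of probes called at a 5% false discovery rate against CT 3d (bars: over-expressed to the right of 0, under-expressed to the left) under 6 scalings, for EC20 (left) and EC50 (right). SVCD, MedianCD and spike-in scaling give nearly only upward calls; Median, Quantile and 75th percentile scaling give fewer upward and up to 1215 downward calls.

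Both doses were set against the same 3 CT arrays, so the agreement of their calls is not independent and is given as a description. Of the 3857 probes called at the EC20, 3805 were also called at the EC50, 3772 of them upward and 33 downward, and none of these differed in direction. Over all tested probes 46.3% were upward at the EC50. The 3772 upward probes had median changes of 1.20 at the EC50 and 0.89 at the EC20. For the 33 downward probes the medians were -1.20 at the EC50 and -1.25 at the EC20. A further 6952 upward and 174 downward probes passed the threshold at the EC50 alone, of which 6873 and 173 had the same sign at the EC20. Their EC50 medians were 0.77 upward and -1.34 downward, against EC20 medians of 0.39 and -0.76. Only 52 probes were called at the EC20 alone. Over all tested probes, the group means ran from CT through EC20 to EC50 in rising order for 14892 probes, or 64.2%, and in falling order for 2683, or 11.6%. After Median normalization these shares were 31.6% and 29.1%.

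Probe by probe, the separation of the doses depended on the scaling. No probe passed the threshold in EC50 minus EC20 by limma, although 3931 probes had an unadjusted p below 0.05, and the smallest adjusted p was 0.0763. The median difference was 0.25 under SVCD and 0.04 under Median normalization, where 573 probes had an unadjusted p below 0.05 and again none passed. With MedianCD scaling, a relative of SVCD, 1695 probes were higher and 1 was lower at the EC50 than at the EC20. The typical 95% interval of a difference was ± 0.58, and the missing calls do not show that the doses act alike. The 3 EC50 arrays lay above all 3 EC20 arrays for 7786 probes (33.6%) and below them for 153 (0.66%). This was counted on the SVCD scale only. That scale holds the arrays of a group together, so a shift of all probes enters these counts. Without EC20 replicate 1 the comparison called 212 probes, and without EC50 replicate 2 it called 227. The methods' t-test, adjusted in the same way, called none.

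The probes with the smallest p in each direction show the size of these differences. Probe CUST_61012_PI427420766_b (read GYUW2K401DC3BM) gave 7.40, 7.03 and 7.41 on the log2 scale in CT 3d, 7.91, 7.39 and 7.39 at the EC20, and 8.29, 8.49 and 8.43 at the EC50. The EC50 arrays stood above both other groups, which overlapped at 7.39 to 7.41. EC50 minus EC20 was 0.84 ± 0.16 (SE, limma adjusted p = 0.0763). Probe CUST_86655_PI427420766_b (read GYUW2K401DJ042) had a difference of 0.67 ± 0.13 (SE, limma adjusted p = 0.0763). In the other direction, CUST_58327_PI427420766_b (read GYUW2K401ARO4N) gave 11.39, 10.19 and 10.56 in CT 3d, 10.49, 10.83 and 11.17 at the EC20, and 10.20, 8.85 and 9.43 at the EC50. Its difference was -1.34 ± 0.46 (SE, limma adjusted p = 0.162). CUST_1790_PI427420766_b (contig26836) differed by -1.26 ± 0.44 (SE, limma adjusted p = 0.164). These values are on the SVCD scale and include its shift of the whole array. Under Median normalization the differences were 0.63, 0.46, -1.55 and -1.47, in the order given (limma adjusted p = 0.999 for each).

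The same 4 probes led the changes against CT at both doses, 2 upward and 2 downward, and all 4 were called at both doses under all 6 scalings. Probe CUST_82499_PI427420766_b (read GYUW2K402HWISX) gave 7.86, 5.90 and 4.03 in CT 3d, 11.02, 13.12 and 13.19 at the EC20, and 13.97, 13.54 and 13.49 at the EC50. All 6 silver arrays lay at least 3 log2 units above the highest CT array. It rose by 6.51 ± 1.14 at the EC20 (SE, limma adjusted p = 0.000209) and by 7.74 ± 1.14 at the EC50 (limma adjusted p = 1.84e-06).

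Probe CUST_14066_PI427420766_b (contig03802) was among the brightest, with 10.52, 6.68 and 8.44 in CT 3d, 10.96, 15.72 and 15.66 at the EC20, and 16.75, 16.29 and 15.77 at the EC50. EC20 replicate 1 stood close to CT replicate 1, far below the other 2 EC20 arrays. The change was 5.57 ± 1.37 at the EC20 (SE, limma adjusted p = 0.00412) and 7.72 ± 1.37 at the EC50 (limma adjusted p = 2.04e-05). Without EC20 replicate 2 the EC20 change was 4.71 and no longer passed (limma adjusted p = 0.0518). Within the scan day that held EC20 replicate 1 and CT replicate 1 the difference was 0.43, and within the other it was 8.13.

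Downward, CUST_10235_PI427420766_b (contig20094) gave 11.15, 9.52 and 11.98 in CT 3d, 7.08, 8.11 and 6.78 at the EC20, and 8.12, 6.78 and 7.58 at the EC50. Its change was -3.56 ± 0.62 at the EC20 (SE, limma adjusted p = 0.000185) and -3.39 ± 0.62 at the EC50 (limma adjusted p = 2.84e-05). The doses overlapped fully. Probe CUST_31050_PI427420766_b (read GYUW2K401DLXG6) gave 12.37, 13.88 and 13.54 in CT 3d, 10.93, 9.59 and 8.89 at the EC20, and 8.25, 9.40 and 9.34 at the EC50. Its change was -3.46 ± 0.83 at the EC20 (SE, limma adjusted p = 0.0034) and -4.27 ± 0.83 at the EC50 (limma adjusted p = 6.61e-05). Over the whole series its 48 silver arrays ranged over 4.05 to 11.43 and its 12 silver-free arrays over 12.03 to 14.61, with no overlap.

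**Figure D4:**
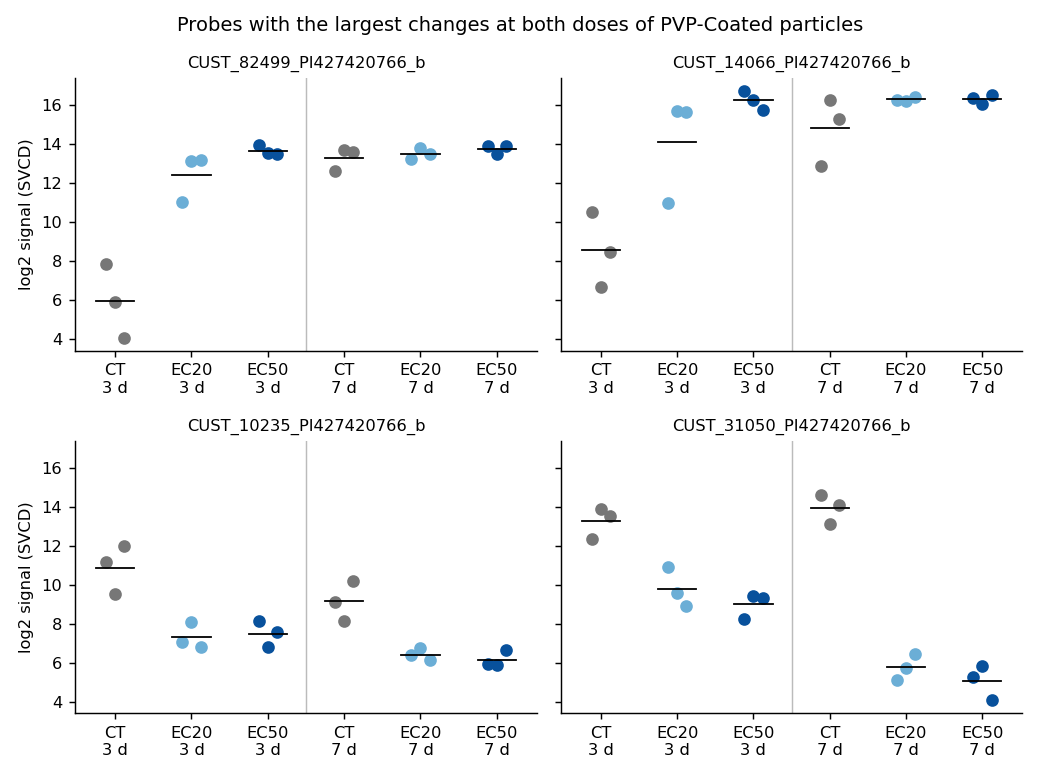
Log2 signal after SVCD normalization (points: arrays; lines: group means, n = 3) of the 4 probes with the largest changes at both doses, in CT, Ag-NPs PVP-Coated EC20 and EC50 at 3 and 7 days. Both upper probes are lowest in CT 3d, with 1 EC20 3d array near 11 in each, and lie above 12 in every 7-day array; both lower probes are lower in the silver groups than in CT at both times.

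The steepest rises covaried over the series. At the EC50, 126 called probes were at least 8-fold above CT. Of them, 79 were contigs, as were 11180 of the 23179 tested probes. All 126 were called under all 6 scalings, against 7.66% of all tested probes. This was largely built in, since they were picked for a rise of at least 8-fold on the SVCD scale. At the EC20, which shares the CT arrays, 122 of them were called upward, against 16.4% of all tested probes. Over the 60 arrays their median pairwise correlation was 0.84, a description only, since they were picked for 1 contrast. Their median log2 signal per array was 5.29, 4.51 and 4.47 in CT 3d, 6.55, 7.94 and 7.93 at the EC20, and 8.50, 8.36 and 8.15 at the EC50. EC20 replicate 1 was the lowest of the EC20 arrays for 112 of the 126 probes, by a median of 1.18. Of these probes, 15 were not well above background on any CT array. Their rises were computed from the CT signals as measured, so their size is uncertain.

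The rule that chose these probes used the change at 3 days, while the 7-day arrays entered the filter, the scaling and the estimate of the spread. At 7 days the same median ranged from 7.21 to 8.50 over all 30 arrays. It was 7.21, 8.07 and 7.86 in CT 7d, 8.18, 8.05 and 8.19 at the EC20, and 8.27, 7.85 and 8.11 at the EC50. The 3-day EC50 arrays, at 8.15 to 8.50, overlapped this 7-day range, whose median was 8.19. They lay above the 3 CT 7d arrays, but the probes were picked for being high in these EC50 arrays. The dispersant control of the series at 3 days (CTdisp 3d) gave 4.59, 4.49 and 6.71, with 2 of 3 arrays at the level of CT 3d. At 7 days that control gave 8.05, 7.996 and 8.21, which overlapped the 3-day EC50 arrays. At 7 days 4 of the 126 probes were called upward at the EC50 and 1 at the EC20, where 5.48% and 1.17% of all tested probes were.

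**Figure D5:**
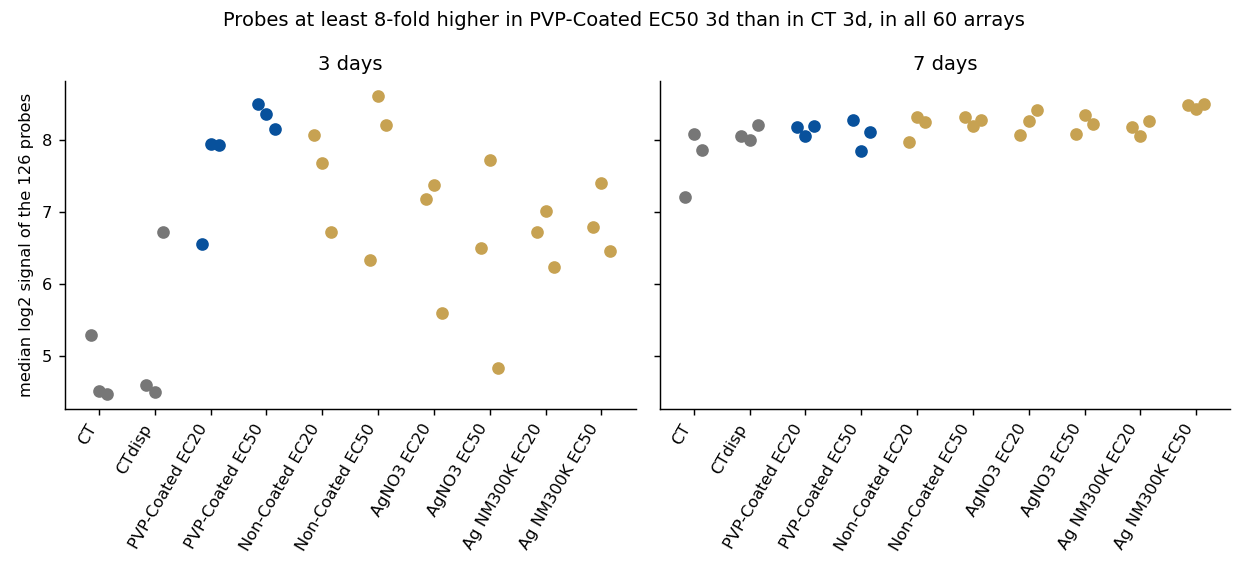
Median log2 signal after SVCD normalization (points: 3 arrays per group) of the 126 probes at least 8-fold higher in Ag-NPs PVP-Coated EC50 3d than in CT 3d, for the 10 groups at 3 days (left) and at 7 days (right); grey are silver-free, blue PVP-Coated, ochre other silver groups. All 7-day arrays lie between 7.21 and 8.50 and the EC50 3d arrays between 8.15 and 8.50; CT 3d lies at 4.47 to 5.29.

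A single steep probe followed the others least, with a median correlation of 0.44 to them against 0.60 for the next lowest, and it was picked out after its values were seen. CUST_27080_PI427420766_b (read GYUW2K402FTC05) gave 7.00, 6.24 and 6.37 in CT 3d, 8.27, 7.33 and 7.03 at the EC20, and 10.10, 9.14 and 9.58 at the EC50. It rose by 3.07 ± 0.67 at the EC50 (SE, limma adjusted p = 0.000241), while the EC20 change was 1.01 ± 0.67 (limma adjusted p = 0.327). At 7 days its level was 7.06, 6.64 and 6.86 in CT 7d, 9.03, 10.72 and 9.10 at the EC20, and 10.003, 9.69 and 7.85 at the EC50. Both 7-day changes passed, with 2.77 ± 0.67 at the EC20 (SE, limma adjusted p = 0.021) and 2.33 ± 0.67 at the EC50 (limma adjusted p = 0.0234). None of the 12 silver-free arrays exceeded 7.06.

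The strongest falls were fewer. At the EC50, 18 called probes were at least 4-fold below CT. Their median signal was 7.37, 7.16 and 7.69 in CT 3d, 5.89, 4.96 and 6.77 at the EC20, and 4.87, 5.25 and 4.91 at the EC50. The EC20 arrays lay between both other groups except replicate 2, which overlapped the EC50 arrays. At 7 days the 6 PVP-Coated arrays lay at 4.51 to 5.46, and over both times the 12 silver-free arrays lay at 5.98 to 7.87. Of the 18 probes, 9 were called downward again at 7 days at the EC50 and 7 at the EC20, where 2.05% and 0.617% of all tested probes were.

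Over all calls, few of the changes at 3 days were found again at 7 days, in arrays that share none with those at 3 days. Of the 10724 upward probes at the EC50, 1019 were upward at 7 days, which is 9.50% of the 3-day list and 80.2% of the 1270 probes in the 7-day list. The share to set beside 80.2% is the 46.3% of all tested probes that were upward at 3 days at the EC50. At 7 days 1745 probes were called at the EC50 (7.53% of those tested) and 414 at the EC20 (1.79%), and 5.48% of all tested probes were upward at the EC50. Of the 10724 upward probes at 3 days 184 were called downward at 7 days, where 2.05% of all tested probes were, and of the 3801 at the EC20 18 were, where 0.617% were. At the EC20, 97 of 3801 upward probes were upward again (2.55% of the 3-day list and 35.8% of the 7-day list of 271). Of all tested probes 1.17% were upward at 7 days and 16.4% at 3 days. Downward, 17 of 207 probes at the EC50 and 8 of 56 at the EC20 were called again. The effect itself differed between 7 and 3 days for 4857 probes at the EC50 (21%), 46 upward (0.198%) and 4811 downward (20.8%), and for 724 at the EC20 (3.12%), 21 upward (0.0906%) and 703 downward (3.03%). After Median normalization the shared upward probes at the EC50 numbered 83, or 4.44% of the 3-day list and 13.7% of the 7-day list, where 2.61% of all tested probes were upward at 7 days and 8.07% at 3 days.

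Among the probes called under all 6 scalings, 7 of 11 downward ones at the EC50 were downward at 7 days, as were 6 of 10 at the EC20, where 2.05% and 0.617% of all tested probes were. Of the 1775 upward ones at the EC50, 150 (8.45%) were upward at 7 days, and 17 of 545 (3.12%) at the EC20, where 5.48% and 1.17% of all tested probes were. In the opposite direction 20 of the 1775 were called at 7 days and none of the 545. The difference between the upward and downward lists was not tested. Probe CUST_31050_PI427420766_b gave 14.61, 13.11 and 14.12 in CT 7d, 5.10, 5.74 and 6.46 at the EC20, and 5.26, 5.84 and 4.09 at the EC50. Its fall at 7 days was -8.18 ± 0.83 at the EC20 and -8.88 ± 0.83 at the EC50 (SE, limma adjusted p = 2.84e-08 and 2.19e-09). Probe CUST_82499_PI427420766_b, the leading rise, gave 12.61, 13.72 and 13.59 in CT 7d, 13.23, 13.80 and 13.47 at the EC20, and 13.90, 13.48 and 13.93 at the EC50. All 3 groups overlapped at 7 days.

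The 12 silver-free arrays of the series, of both controls and both times, give a wider range to set the 3-day arrays against. All 3 EC50 arrays lay above every silver-free array for 3616 probes, 15.6% of those tested, and below every one for 23, or 0.0992%. Of the 10724 upward calls 3373 were among them (31.5%), and of the 207 downward calls 16 (7.73%). At the EC20 the counts were 136 probes above (0.587%) and 30 below (0.129%), with 105 of the 3801 upward calls (2.76%) and 16 of the 56 downward calls (28.6%). These counts were made on the SVCD scale only. There the mean level was 7.38 at the EC50 and 7.18 at the EC20, against 6.88 to 7.17 in the silver-free groups. The shift of the whole array thus enters them. With CTdisp 3d in place of CT 3d as the control, 507 upward and 94 downward probes were called at the EC20, and 5264 and 191 at the EC50.

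Bright probes were called more often than dim ones. With the probes divided into 4 equal classes by mean level, 24.3% of the dimmest and 59.3% of the brightest class were over-expressed at the EC50, and 7.84% and 18.6% at the EC20. The median standard error was 0.40 in the dimmest class and 0.20 in the brightest. The median EC50 change was 0.38 in the dimmest class, 0.55 and 0.62 in the middle classes and 0.58 in the brightest. After Median normalization these medians were -0.14, 0.03, 0.10 and 0.06. Contig probes were over-expressed somewhat more often than read probes, with 48.6% of 11180 against 44.1% of 11999 at the EC50, and 17.9% against 15.01% at the EC20. The median level was 6.19 for contig probes and 6.85 for read probes.

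Some probes outside the tested set crossed the background between groups. Of all 43750 gene probes, 316 were positive and significant on all 3 EC50 arrays and on no CT array (0.722%), and 85 the other way round (0.194%). For the EC20 these counts were 156 (0.357%) and 52 (0.119%). Between EC50 and EC20 they were 114 and 76. The arrays differed in how many gene probes were positive and significant at all, and the counts were not adjusted for it. The share was 72.9%, 73.2% and 83.0% in CT 3d, 78.1%, 78.7% and 78.6% at the EC20, and 83.1%, 79.0% and 75.8% at the EC50. Few of the signals were strong, with 20 of the 316 well above background on all 3 EC50 arrays.

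The most similar material at the same time was the Ag-NPs Non-Coated particle, which lacks the PVP coat. Each material was dosed at its own EC20 and EC50, so the doses are matched by effect on reproduction. No probe passed the threshold for PVP-Coated minus Non-Coated by limma at either dose, and 605 probes at the EC20 and 281 at the EC50 had an unadjusted p below 0.05. The median difference was 0.04 at the EC20 and -0.01 at the EC50, and the typical 95% interval was ± 0.58. The changes of the leading probes against CT in Non-Coated worms, which share the CT arrays, were of the same sign. For CUST_82499_PI427420766_b they were 6.32 ± 1.14 at the EC20 and 6.74 ± 1.14 at the EC50, and for CUST_31050_PI427420766_b -3.30 ± 0.83 and -3.72 ± 0.83 (SE).

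The arrays were spread over slides and scan days. Among the 9 arrays, 7 slides were used and 2 of them held more than 1 group. On the slide that held EC20 replicate 2 and CT replicate 2, the median difference was 0.26, with 71.1% of all tested probes positive. On the slide of EC50 replicate 2 and EC20 replicate 1 it was 0.26 as well. Within the scan days that held several groups, the median EC20 change was 0.29 and 0.27, the EC50 change 0.55 and 0.53, and EC50 minus EC20 0.26 and 0.27. Because SVCD first aligns the arrays of each group with one another, these medians had to lie near the whole-group medians. They therefore do not check for a batch effect on the level. Under spike-in scaling the mean levels on scan day 1 were 7.11 at the EC20 and 6.79 in CT. On scan day 3 they were 7.75 and 7.28 at the EC20, and 6.31 and 6.75 in CT. The EC50 arrays were at 7.68 on scan day 1, 7.33 on scan day 3 and 7.74 on scan day 4. On scan day 3 the EC50 array thus lay between the EC20 arrays. Scan day 4 held no CT or EC20 array at 3 days. Single arrays moved the counts. Without CT replicate 3 there were 1124 calls at the EC20 and 7104 at the EC50. The EC20 count was 1807 without its replicate 1, 1498 without its replicate 2 and 5939 without its replicate 3.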

How the data were processed

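RNA from pools of 20 whole worms was hybridised by the authors to custom Agilent 4 × 44k arrays, 1 pool per array, in 20 groups of 3. The deposited files hold spot intensity values from Agilent Feature Extraction 10.7.3.1 (protocol GE1_107_Sep09, per the file headers). The processed signal is background-subtracted by the authors' software and not scaled between arrays. The deposited series table held the same intensity values, within 0.5%.

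Gene probes called positive by the software on each of the 60 arrays (23179 of 43750) were taken to log2. There, 308 spots flagged as outliers were set missing. SVCD normalization followed the study's description. It used 6587 no-variation probes found at a Kolmogorov-Smirnov level of 0.001. A mean per group was fitted over all 60 arrays with limma 3.58.1 in R 4.3.3, and p-values were adjusted by Benjamini-Hochberg over all tested probes. The replicates are vessels. Alternatives covered scaling, filters, background, test, batch terms and each array left out. Scripts were tested on simulated data.

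The named probes are the 2 highest and 2 lowest changes per comparison among calls well above background on all 9 arrays with groups that did not overlap, at each dose and at both. Where nothing was called they are the 2 smallest p in each direction. The arrays, rules and lists were chosen with earlier results of these data known. Array precision is limited by the number of arrays.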

Additional observations from a re-analysis of the deposited data

Results flagged for a closer look

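The effect of the PVP-Coated particles differed between 7 and 3 days for 724 probes at the EC20 and 4857 at the EC50, by the interaction term of the limma fit. Nearly all of these differences were negative (703 and 4811), and Median normalization called 22 and 581. Leaving out 1 array at a time gave 65 to 1827 probes at the EC20 and 1776 to 6230 at the EC50.

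Among the named probes, the effect of CUST_82499_PI427420766_b at 7 days minus that at 3 days was -6.32 at the EC20 and -7.28 at the EC50 (limma adjusted p = 0.0231 and 0.00148). For CUST_14066_PI427420766_b it was -6.22 at the EC50 (limma adjusted p = 0.0187). For both, CT 3d was the low group and CT 7d stood near the silver arrays. CUST_31050_PI427420766_b had -4.72 at the EC20 and -4.61 at the EC50 (limma adjusted p = 0.0205 and 0.00467), a deeper fall at 7 days. At the EC50, CUST_61012_PI427420766_b had -1.04 and CUST_86655_PI427420766_b -0.61 (limma adjusted p = 0.00145 and 0.0189). Under Median normalization the adjusted p of limma was 0.0917 for CUST_82499_PI427420766_b and 0.0907 for CUST_31050_PI427420766_b at the EC20, and at the EC50 0.0871 for CUST_14066_PI427420766_b, 0.180 for CUST_61012_PI427420766_b and 0.641 for CUST_86655_PI427420766_b, so these 5 differences no longer passed. Their sizes were then -6.05 for CUST_82499_PI427420766_b and -4.45 for CUST_31050_PI427420766_b at the EC20, and -5.79 for CUST_14066_PI427420766_b, -0.61 for CUST_61012_PI427420766_b and -0.18 for CUST_86655_PI427420766_b at the EC50.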

How the results depend on the processing

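At the EC20 the 3857 calls became 777 with Median, 748 with Quantile, 1008 with 75th percentile and 7024 with spike-in scaling. At the EC50 the 10931 calls became 3086 with Median, 3230 with Quantile and 3088 with 75th percentile scaling. Without a filter on dim probes there were 2042 and 6501. The normexp background, which adds an offset of 50 to signals whose array medians were 10.6 to 22.3, gave 10533 at the EC20 and 510 at the EC50, and 12214 calls for EC50 minus EC20, all lower. The methods' t-test called 7 at the EC20 after adjustment (5206 before) and 7893 at the EC50. Added after seeing the data, CTdisp 3d as control gave 601 and 5455, and Median normalization with slide as a block gave 1308 and 1129. Of those 1308 EC20 calls, 751 were upward and 557 downward.

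EC50 minus EC20 called 1696 probes with MedianCD, 12 among probes well above background on all arrays and 21 with slide as a block. PVP-Coated minus Non-Coated stayed at 0 with Median normalization and with slide as a block (497 to 1114 unadjusted at the EC20, 266 to 854 at the EC50). The mean array level under Median normalization differed by -0.00829 for EC20 minus CT, -0.0227 for EC50 minus CT and -0.0144 for EC50 minus EC20. The effect at 7 minus 3 days fell to 22 and 581 calls with Median normalization. The cause of these differences was not tested.

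Leaving out 1 array gave 1124 to 5939 calls at the EC20, 7104 to 11960 at the EC50, 0 to 227 for EC50 minus EC20, 65 to 1827 and 1776 to 6230 for the effect at 7 minus 3 days, and 0 to 7 (EC20) and 0 to 2 (EC50) for PVP-Coated minus Non-Coated. The 2 arrays left in a group were assumed to vary like the other groups.

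The replicate numbers did not pair the arrays. Same-numbered arrays correlated in their deviations at -0.51 to 0.44, with 2 of 9 pairs above 0.1. With the replicate block there were 3855 calls at the EC20, 11016 at the EC50, 0 for EC50 minus EC20, 795 and 4932 for the effect at 7 minus 3 days, and 0 for both comparisons with Non-Coated. The block changed no other call by over 1.5 times. Of 240 alternative values of the 12 changes against CT called among the named probes, 224 kept direction and call, 12 missed the threshold and 4 reversed. All 4 were of CUST_86655_PI427420766_b at the EC50, at -0.0249 with Median, -0.0530 with Quantile, -0.0279 with 75th percentile and -0.0318 with normexp.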
